A study of Homo sapiens with 30 samples.

Results

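The genes described here are the 4 MyoD-family factors MYOD1, MYOG, MYF5 and MYF6, the 3 E proteins TCF3, TCF4 and TCF12, and the 3 inhibitors ID1, ID2 and ID3. They were taken from the tables by gene symbol, with no threshold on any value, though earlier results of these data were known when the genes were listed. All 10 are present in each table, among 23262 genes in the time course and 23261 in the clones. Of these, 8 passed the filter on low counts and were tested. MYF5 and MYF6 did not pass it in any comparison.

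RNA sequencing was done on Rh30, an alveolar rhabdomyosarcoma cell line whose driver is the PAX3-FOXO1 fusion, a transcription factor. In the PAX3-FOXO1-FKBP line the fusion carries the FKBP degradation tag, in the FOXO1-FKBP line the tag is on FOXO1, and the small molecule dTAG, used at 500 nM, is designed to send tagged protein for degradation. Each line was measured in DMSO, the solvent, and after 2, 6, 24 and 72 h of dTAG (20 samples, 2 per condition). The other 10 samples are DMSO-treated parental Rh30, which has no tag, and the PAX3-FOXO1-FKBP clones 4, 10, 11 and 12, again 2 of each. All groups share the Rh30 background, so the fusion is also present in the FOXO1-FKBP line. The time-course tables have 1 column per condition, in which the 2 samples are pooled, so no column carries a replicate error. Whether the 2 libraries of a clone came from separate cultures is not given in the labels, and p-values for the clones measure the spread between libraries, which may be technical. Which clone the time-course line is, and how many clones make up either line, is not stated in the labels. Protein was not analysed here.

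MyoD-family proteins are basic helix-loop-helix (bHLH) transcription factors that switch on skeletal muscle genes. They bind DNA as heterodimers with E proteins, at E-boxes of the form CANNTG. ID proteins are helix-loop-helix proteins without the basic DNA-binding region: they bind E proteins and keep them from DNA, and their genes are classical targets of BMP and SMAD signalling. MYOD1 and MYF5 act early in the lineage, MYOG at terminal differentiation and MYF6 mainly in later muscle. Rhabdomyosarcoma cells are known for making MYOD1 and MYOG protein while failing to complete differentiation.

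The promoters of MYOG and of the 3 ID genes are shown because MYOG was the member with the largest change over the time course and the ID genes moved together in several sets of libraries. Each is the 250 bases before the annotated start, from RefSeq (GRCh38.p14), in the direction of transcription. Capitals mark E-boxes (CANNTG) and CCAAT boxes (CCAAT or ATTGG), searched on both strands. MYOG lies at chr1:203086013-203086262 on the minus strand, ID1 at chr20:31605039-31605288 on the plus strand, ID2 at chr2:8681806-8682055 on the plus strand and ID3 at chr1:23559502-23559751 on the minus strand.
MYOG: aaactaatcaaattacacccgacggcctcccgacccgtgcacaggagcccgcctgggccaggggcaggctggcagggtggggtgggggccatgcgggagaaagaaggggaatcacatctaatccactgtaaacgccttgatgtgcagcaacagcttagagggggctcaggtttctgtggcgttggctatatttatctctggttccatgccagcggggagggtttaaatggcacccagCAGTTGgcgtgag
ID1: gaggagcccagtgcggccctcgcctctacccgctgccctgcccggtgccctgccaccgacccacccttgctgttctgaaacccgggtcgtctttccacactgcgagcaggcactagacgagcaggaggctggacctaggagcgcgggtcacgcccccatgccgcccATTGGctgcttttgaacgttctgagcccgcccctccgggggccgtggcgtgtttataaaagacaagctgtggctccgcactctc
ID2: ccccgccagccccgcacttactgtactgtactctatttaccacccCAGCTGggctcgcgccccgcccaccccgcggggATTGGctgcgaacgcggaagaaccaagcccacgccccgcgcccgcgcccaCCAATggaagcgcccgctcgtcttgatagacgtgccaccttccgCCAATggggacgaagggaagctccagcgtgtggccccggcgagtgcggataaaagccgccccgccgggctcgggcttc
ID3: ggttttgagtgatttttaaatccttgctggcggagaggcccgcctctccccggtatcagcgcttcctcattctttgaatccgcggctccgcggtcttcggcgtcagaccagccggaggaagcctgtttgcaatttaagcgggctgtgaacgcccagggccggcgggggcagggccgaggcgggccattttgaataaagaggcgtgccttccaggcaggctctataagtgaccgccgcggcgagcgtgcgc
The MYOG window holds 1 E-box, CAGTTG, that begins 13 bases before the start, and no CCAAT box. The ID2 window holds 1 E-box, CAGCTG, 205 bases before the start, and 3 CCAAT boxes, at 172, 122 and 78 bases. The ID1 window has a CCAAT box at 84 bases and a TATAAA match at 31 bases, in lower case here, and no E-box. In the ID3 window neither E-box nor CCAAT box was matched. Of 35116 annotated promoter windows of this length, 61.8% hold an E-box, 14% hold CAGCTG, 9% CAGTTG, 32% a CCAAT box and 10.7% TATAAA. A match is a stretch of letters and is not evidence of binding. Entries were found for 9 of the 10 genes, the exception being MYOD1.

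Totals were 25863451 to 30466960 estimated counts per time-course column and 17746684 to 26834005 counts per clone library. Values below are normalised counts, scaled with TMM factors within a table, and a level is compared between genes only per kilobase of transcript. Of the 12 markers listed for rhabdomyosarcoma and Rh30, MYOD1 and MYOG among them, 12 had at least 10 normalised counts in every column and library. In bulk RNA, fewer cells that express a gene and less RNA per cell cannot be told apart. The 2 h column of the PAX3-FOXO1-FKBP line stands apart: the sum of 10 B lineage markers was 1660 there, with 10 of 10 at 10 or more, against 25.5 to 88.2 in the other 4 columns, where MS4A1 is listed at 0. Of 7 pan-leukocyte markers, 7 were at 10 or more in that column and 3 in each of the other 4. The B lineage sum was 59.4 to 78.2 in the FOXO1-FKBP line, with 72.5 at 2 h.

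MYOG, the factor of terminal differentiation, rose through the time course of the PAX3-FOXO1-FKBP line, and MYOD1 was lower in each dTAG column than in DMSO without passing the test. MYOG was at 9687 normalised counts in DMSO and at 14202, 20492, 29919 and 34753 after 2, 6, 24 and 72 h. Each column was above the one before, and all 4 dTAG columns lay above DMSO. The log2 changes against DMSO were 0.55, 1.08, 1.63 and 1.84 in that order. MYOG in the FOXO1-FKBP line was at 9417 in DMSO and 10361, 9909.6, 10398 and 11107 after dTAG. The lines were scaled in separate tables; on those scales the DMSO columns were close, and every dTAG column of the PAX3-FOXO1-FKBP line was above every column of the other line.

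These columns were tested with a slope on log2 of hours plus 1, and the fitted change is that slope carried to 72 h. With 1 pooled column per time, the p-value measures scatter around a straight line. For MYOG the fitted change was 1.91 (SE 0.173, edgeR adjusted p = 0.00193) in the PAX3-FOXO1-FKBP line and 0.20 (SE 0.125, adjusted p = 0.856) in the FOXO1-FKBP line. The slopes differed by 1.70 (SE 0.202, edgeR adjusted p = 0.00274). Without the DMSO columns the difference was 1.59 and no longer passed (adjusted p = 0.137); over the other 11 alternatives its adjusted p was at most 0.0373. Of the 8 genes tested, MYOG and TCF4 rose and none fell, where 2.31% of 13543 genes rose and 2.08% fell. In the FOXO1-FKBP line edgeR called 0 of 13352 genes in either direction (0%), with 618 genes at an unadjusted p under 0.05 and 1 gene called by DESeq2. For the difference in slope 1 of the 8 was called, MYOG, against 1.19% of 13029 genes with the slope of the PAX3-FOXO1-FKBP line above and 0.936% below.

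**Figure D1:**
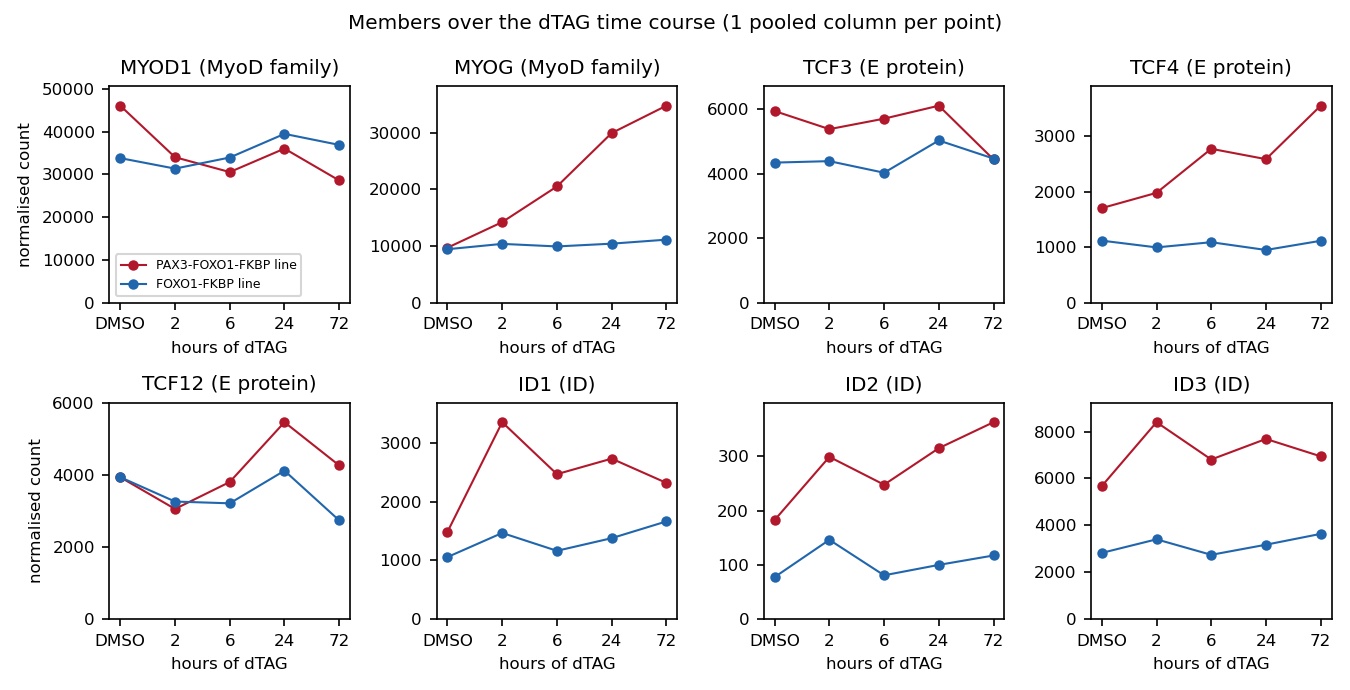
Normalised count (vertical axes, from 0) of the 8 tested genes against hours of dTAG, shown as ordered categories, in the PAX3-FOXO1-FKBP line (red) and the FOXO1-FKBP line (blue). Each point is 1 pooled column, so there are no error bars; MYOG climbs from 9687 to 34753 in the red line and stays between 9417 and 11107 in the blue one.

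MYOD1, which opens muscle gene chromatin, was the most abundant of the 10 genes per kilobase in DMSO. In the PAX3-FOXO1-FKBP line it stood at 46041 normalised counts in DMSO and at 33994, 30518, 36007 and 28557 after 2, 6, 24 and 72 h. All 4 dTAG columns were below DMSO, with log2 changes of -0.44, -0.59, -0.35 and -0.69. The fitted change of -0.51 (SE 0.199) did not pass (edgeR adjusted p = 0.246). MYOD1 in the FOXO1-FKBP line was at 33780.1, 31327, 33924, 39451 and 36872, and the slopes differed by -0.75 (SE 0.262, adjusted p = 0.226). MYF5 was listed at 0 in all 10 time-course columns and had 0 counts in all 10 clone libraries, which allows up to 3 counts in each, or 0.0985 to 0.169 CPM. MYF6 was at 0 to 3.86 normalised counts in the time course, near that floor, and was detected in 1 clone library, at 2.21.

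Among the E proteins TCF4 rose. TCF4 here is the bHLH gene also called E2-2, not the WNT effector TCF7L2. In the PAX3-FOXO1-FKBP line its level, in normalised counts, went from 1704 in DMSO to 1979, 2773, 2587 and 3551 after 2, 6, 24 and 72 h. The log2 change was 0.22, 0.70, 0.60 and 1.06, and all 4 dTAG columns were above DMSO. The FOXO1-FKBP line had TCF4 at 1117 in DMSO and 995, 1089, 949 and 1115 after dTAG, below every column of the other line. The fitted change was 0.99 (SE 0.185, edgeR adjusted p = 0.0248) in the first and -0.029 (SE 0.142, adjusted p = 0.976) in the second. The slopes differed by 1.01 (SE 0.24), which did not pass (adjusted p = 0.0605). The call of TCF4, though not its size, depended on single columns: the fitted change was 0.93 without DMSO (adjusted p = 0.270), 0.95 without 2 h (adjusted p = 0.0523) and 0.90 without 72 h (adjusted p = 0.282). Over 12 alternatives it was 0.90 to 1.09. The difference in slope passed with DESeq2 (adjusted p = 0.00723), and with edgeR when time was taken as a rank (adjusted p = 0.0458). It also passed in edgeR without the 24 h columns (adjusted p = 0.0152). Over 12 alternatives the adjusted p of that difference was 0.00723 to 0.726.

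TCF3, which encodes the E12 and E47 proteins, did not pass the test. It was at 5945 in DMSO and 5384, 5709, 6112 and 4443 across the dTAG times of the PAX3-FOXO1-FKBP line (fitted change -0.25, SE 0.188, edgeR adjusted p = 0.557). The other line had TCF3 between 4031 and 5033. TCF12, the E protein HEB, was at 3946 in DMSO and 3064, 3813, 5477 and 4274 across the same columns (fitted change 0.44, SE 0.256, adjusted p = 0.448). TCF12 in that other line was at 3946, 3269.6, 3220.3, 4128 and 2745. Its 24 h column was the highest in both lines. Without that column TCF12 was called falling in the FOXO1-FKBP line (-0.47, edgeR adjusted p = 0.0126), where 1309 genes were then called.

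The 3 ID genes, inhibitors of E proteins, were above DMSO from the first dTAG column on in the PAX3-FOXO1-FKBP line, and none passed the slope test. ID1 was at 1485 normalised counts in DMSO and at 3353, 2468, 2732 and 2319.6 after 2, 6, 24 and 72 h. ID3 was at 5675 and then 8402, 6810.0, 7687 and 6945. ID2, the least abundant, was at 183 and then 299, 248, 315 and 363. For all 3 genes every dTAG column was above DMSO, and for ID1 and ID3 the 2 h column was the highest. At 2 h the log2 change was 1.17 for ID1, 0.71 for ID2 and 0.57 for ID3. These rank 33, 134 and 279 from the highest among 12334 genes with a mean of at least 50 normalised counts.

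The FOXO1-FKBP line also had higher ID values at 2 h. ID1 was at 1056 in DMSO and 1467, 1163, 1378 and 1663 after dTAG. ID2 was at 77.4 and then 146, 80.7, 99.9 and 117. ID3 was at 2824 and then 3404, 2742, 3174 and 3637. At 2 h the log2 change was 0.47, 0.90 and 0.27, which are ranks 93, 9 and 437 from the highest among 11982 genes, and at 6 h all 3 were within 0.14 of DMSO. The B lineage markers, high in the 2 h column of the PAX3-FOXO1-FKBP line, summed to 72.5 in the 2 h column here and to 60.8 in DMSO. Their part in the 2 h values of the first line was not tested. With 1 column per time, the change at 2 h has no replicate check. With all columns in the fit, the slopes of ID1, ID2 and ID3 passed in neither line (edgeR adjusted p = 0.771, 0.132 and 0.759 in the PAX3-FOXO1-FKBP line and 0.856, 0.939 and 0.856 in the other). Without its 24 h column, when 1309 genes were called, the FOXO1-FKBP line had ID1 called rising (0.55, edgeR adjusted p = 0.0363).

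A fold of at least 2 against DMSO, with a mean of at least 50, describes single times. In the PAX3-FOXO1-FKBP line this held at 2 h for ID1 alone among the 8 genes, where 0.373% of genes were that much higher and 0.284% lower. It held for MYOG after 6 h, when 0.608% of genes were higher and 1.23% lower. MYOG was also the member that passed after 24 h, against 1.38% of genes higher and 1.73% lower. At 72 h it held for MYOG and TCF4, with 3.41% of genes higher and 3.05% lower. None of the 8 passed in the FOXO1-FKBP line at any time. The shares of all genes higher there were 0.0334%, 0.0334%, 0.108% and 0.0501% after 2, 6, 24 and 72 h, and the shares lower were 0.0417%, 0.025%, 0.1% and 0.392%.

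The 2 lines already differed in DMSO. Scaled together, ID2 was at 169.8 normalised counts in the PAX3-FOXO1-FKBP line and 84.0 in the FOXO1-FKBP line, a log2 difference of 1.00. ID3 was at 5277 and 3064 (0.78) and TCF4 at 1584 and 1212 (0.39). MYOD1, MYOG, TCF3, TCF12 and ID1 differed by at most 0.27 either way. Over all genes, 5.94% were at least 2-fold above and 3.95% at least 2-fold below in the PAX3-FOXO1-FKBP line, and these differences have no replicate check. In the joint scaling no member passed 2-fold once the prior of 2 was added, with ID2 at the edge (0.998).

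Per kilobase of transcript, the balance within the MyoD family moved from MYOD1 to MYOG. MYOG made up 19.9% of the summed per-kilobase level of the family in DMSO in the PAX3-FOXO1-FKBP line, and 33.0%, 44.2%, 49.5% and 58.9% after 2, 6, 24 and 72 h. The share was 23.7% to 28.1% in the FOXO1-FKBP line over all columns. At 72 h MYOG was at 22740 per kilobase and MYOD1 at 15860, whereas in DMSO they were at 6340 and 25560. TCF4 made up 13.6% of the E-protein level in DMSO and 17.7%, 21.0%, 16.8% and 26.9% after dTAG, against 8.6% to 12.4% in the FOXO1-FKBP line. The TCF4 share depends on the length taken, since its annotated coding transcripts run from 1701 to 8343 nucleotides.

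The ratio of the ID to the E-protein level per kilobase was 1.85 in DMSO in the PAX3-FOXO1-FKBP line, 3.44 after 2 h and 2.22 to 2.32 later. It was 1.23 in DMSO in the FOXO1-FKBP line, then 1.71, 1.41, 1.35 and 1.93. These ratios use mean transcript lengths and depend on them: with the shortest annotated transcript of every gene the ratio was 1.01 to 1.91 in the PAX3-FOXO1-FKBP line and 0.651 to 1.08 in the FOXO1-FKBP line, below 1 in 4 of its 5 columns. With mean lengths ID3 held 64.8% to 75.5% of the ID level. RNA ratios say nothing of the ratio of the proteins.

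**Figure D2:**
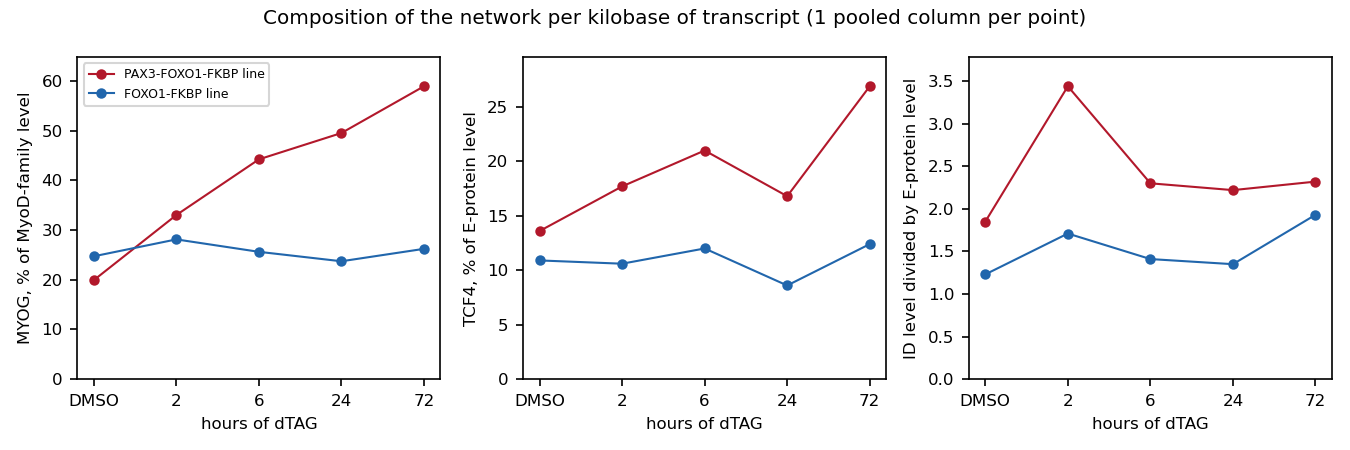
Share of MYOG in the MyoD-family level (left), share of TCF4 in the E-protein level (middle) and ID level divided by E-protein level (right), all from normalised counts per kilobase, against hours of dTAG as ordered categories; 1 pooled column per point and no error bars. The MYOG share climbs from 19.9% to 58.9% in the PAX3-FOXO1-FKBP line (red) and stays within 23.7% to 28.1% in the FOXO1-FKBP line (blue).

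Genes that MyoD-family factors are known to switch on rose with MYOG. Of 31 textbook targets, 29 were tested in the PAX3-FOXO1-FKBP line, and 16 rose and 0 fell, with a median fitted change of 1.90 against 0.0059 over all genes. Of all genes 2.31% rose and 2.08% fell. ACTC1, cardiac actin, rose from 27088 to 135105 normalised counts at 72 h (fitted change 2.33, edgeR adjusted p = 0.00106). MYLPF, a fast myosin light chain, rose from 1446 to 31194 (4.43, adjusted p = 0.00164), and LMOD3, a thin filament protein, from 83.9 to 892 (3.32, adjusted p = 0.00205). At 2 h these stood at 43578, 2272 and 139, already above DMSO. edgeR called 0 of 30 in the FOXO1-FKBP line (median 0.093, 0 at an unadjusted p under 0.05). Of 29 tested for a difference in slope, 12 were called, each with the steeper rise in the PAX3-FOXO1-FKBP line. A higher slope there was called for 1.19% of all genes. MYOG was rising over the same columns in which these targets rose, and no test here orders them.

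Of 16 other inhibitors of MyoD-family activity, 14 were tested and 4 rose and 0 fell (median fitted change 0.66). The shares over all genes were 2.31% rising and 2.08% falling. HEYL and HEY1, repressors downstream of Notch, rose from 2089 to 4024 (0.98, edgeR adjusted p = 0.00707) and from 112 to 398 (1.61, adjusted p = 0.018). BHLHE40, a bHLH repressor, rose from 173 to 692 (1.67, adjusted p = 0.0191). The last of the 4, named after its values were seen, was HDAC9, a class II deacetylase, at 104 in DMSO and 464 at 72 h (1.95, adjusted p = 0.0387). HEY1 stood at 517 to 661 in the FOXO1-FKBP columns, on the scale of their own table.

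Of 35 BMP and SMAD pathway genes, 32 were tested, with 1 rising and 3 falling (median -0.15). That 1 of 32 rose is near the 2.31% of all genes that rose, and 2.08% of all genes fell. ACVR2A, an activin and BMP receptor, rose from 1109 to 2493 (1.21, edgeR adjusted p = 0.0128). GREM1, a secreted BMP antagonist, fell from 3481 to 539 (-2.64, adjusted p = 0.00455), BMP5, a ligand, from 1046 to 158 (-2.92, adjusted p = 0.00738), and CHRDL1, another antagonist, from 168 to 26.3 (-2.34, adjusted p = 0.0178). At 2 h, the column in which ID1 was highest, GREM1 was at 2375, below its DMSO value. Its part in the ID values was not tested. Of 25 other tissue-specific bHLH partners of E proteins, edgeR tested 5 and called 0, with 3 at an unadjusted p under 0.05, and NHLH1 had the lowest p (-1.36, adjusted p = 0.116). Of 14 coactivators and chromatin partners of MyoD, edgeR tested 14 and called 0, with 1 at an unadjusted p under 0.05, SMARCD3 (0.40, adjusted p = 0.211). DESeq2 was run on whole tables and not counted by list.

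Genes whose pattern over the 10 time-course columns was most like that of a member were found by Pearson r of log2 values, each line centred, among 804 genes spanning at least 2-fold. The columns of a line come from the same cell line and the same table, so r is a description. MYOG was most like SLC16A3, a lactate transporter (r = 0.991), KREMEN2 (0.988), HES6, a bHLH gene (0.985), MB, myoglobin (0.985), and AK5, an adenylate kinase (0.978). The most opposite were POU4F1, a neuronal factor (-0.992), RASSF5 (-0.992) and ETV5, an ETS factor (-0.991). TCF4 was most like HEY1 (0.977), TMEM100 (0.961), TRIM55, a sarcomere-associated protein (0.960), LMNA, lamin A (0.956), and ADORA1 (0.955), and most opposite to CLMN (-0.984), FGFR2 (-0.972) and KIAA1614 (-0.972).

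For ID1 the highest values were lower: ATOH8, a bHLH gene (0.736), SMAD6 (0.659), SAMD11 (0.610), CX3CL1 (0.598) and SMAD7 (0.597). SMAD6 and SMAD7, inhibitory SMADs that BMP and TGF-beta signalling induce, belong to the BMP list. In the PAX3-FOXO1-FKBP line SMAD7 was at 126 in DMSO and 288, 154, 157 and 209 after dTAG. The gene most opposite to ID1 was BMP4, a ligand of the same pathway (r = -0.893), at 1873 in DMSO and 826, 1132, 1111 and 1242 after dTAG. DDIT4L (-0.807) and OSR2 (-0.782) followed. None of SMAD6, SMAD7 and BMP4 passed the trend test (edgeR adjusted p = 0.344, 0.916 and 0.632).

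In the clones, MYOD1 was higher and TCF4 and TCF12 mostly lower than in parental cells, before any dTAG. MYOD1 was at 26589.7 and 26855 normalised counts in the 2 parental libraries. Clone 4 had 54566 and 68536, clone 10 had 50837 and 52672, clone 11 had 44044 and 51431, and clone 12 had 44515 and 40886. All 8 clone libraries were above both parental ones, clone 4 was above the rest, and clones 10, 11 and 12 were not separated from their neighbours in that order. The log2 fold change was 1.27 (SE 0.146, edgeR adjusted p = 0.000115), 1.03 (SE 0.145, adjusted p = 0.000293), 0.91 (SE 0.145, adjusted p = 0.000577) and 0.74 (SE 0.144, adjusted p = 0.00172) in clones 4, 10, 11 and 12.

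MYOG was at 7355 and 7712 in parental cells. Clone 4 had 11121 and 13830.3, clone 10 had 8649 and 9204, clone 11 had 12202 and 13562, and clone 12 had 15678 and 13060.1. Clone 10 lay just above parental, and clones 4, 11 and 12 overlapped one another above it. The log2 fold change was 0.80 (SE 0.146, edgeR adjusted p = 0.00141) in clone 4, 0.32 (SE 0.145, adjusted p = 0.0870) in clone 10, 0.84 (SE 0.146, adjusted p = 0.000887) in clone 11 and 1.00 (SE 0.146, adjusted p = 0.000366) in clone 12. Per kilobase MYOG was 24.6% and 25.3% of the MyoD-family level in parental cells. The share was 16.7% to 19.4% in clones 4 and 10, 23.7% to 24.6% for clone 11 and 27.4% to 29.3% for clone 12. No clone reached the 58.9% of the 72 h column.

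TCF4 was at 714 and 710.4 in parental cells. Clone 4 had 443 and 349, clone 10 had 619 and 525, clone 11 had 490.0 and 385, and clone 12 had 273 and 283. All 8 clone libraries were below parental. The log2 fold change was -0.78 (SE 0.175, edgeR adjusted p = 0.00426), -0.24 (SE 0.172, adjusted p = 0.253), -0.63 (SE 0.174, adjusted p = 0.0112) and -1.29 (SE 0.178, adjusted p = 0.000274) in clones 4, 10, 11 and 12. In clone 11 the call was lost without either parental library or without its own second library, with adjusted p of 0.0538 to 0.0684.

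TCF12 was at 2822 and 2789 in parental cells. Clone 4 had 1863 and 1504, clone 10 had 2461 and 2125, clone 11 had 1842 and 1346, and clone 12 had 2214 and 1984. All 8 clone libraries were below parental here too. It was called in clones 4 (log2 fold change -0.67, SE 0.172, edgeR adjusted p = 0.00879) and 11 (-0.74, SE 0.173, adjusted p = 0.00451). In clone 4 the call was lost without the first parental library (adjusted p = 0.0551). TCF3 was at 4099 and 3890.4 in parental cells and 3369 to 5010.1 in the clones. Its libraries overlapped parental in clones 4, 11 and 12, and those of clone 10, at 4147 and 4202, were just above. It was called in no clone (edgeR adjusted p = 0.373 to 0.882).

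**Figure D3:**
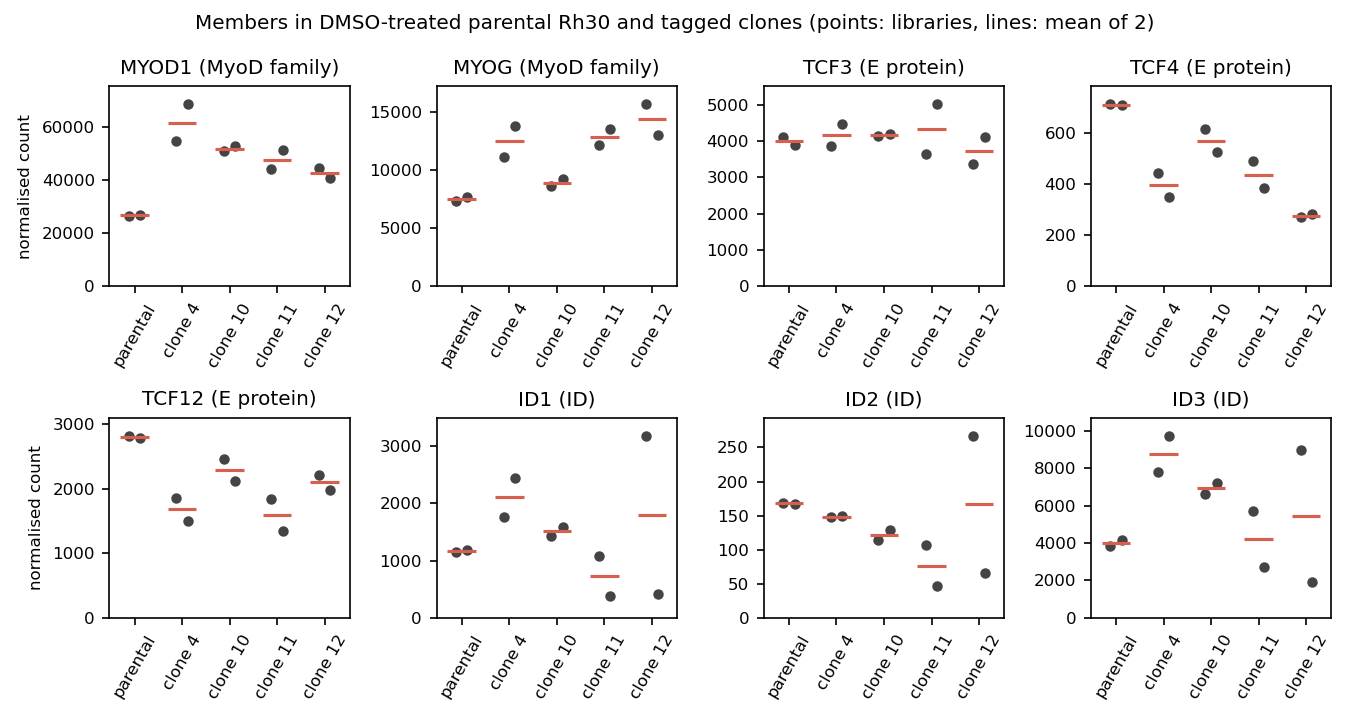
Normalised count (vertical axes, from 0) of the 8 tested genes in DMSO-treated Rh30, parental or PAX3-FOXO1-FKBP clones; dots are the 2 libraries of a group and the line is their mean. MYOD1 is above parental in all 8 clone libraries, TCF4 and TCF12 are below it in all 8, and the ID genes are split between the 2 libraries of clones 11 and 12.

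These counts stand against a high background. In clone 4 MYOD1 and MYOG were higher and TCF4 and TCF12 lower, where 25.1% of 14175 genes were higher and 22.3% lower, 47.4% in all. In clone 10 MYOD1 alone was called, higher, where 27.8% of genes were higher and 24.2% lower, 52% in all. In clone 11 MYOD1 and MYOG were higher and TCF4 and TCF12 lower, with 26.5% and 25.1% of genes and 51.6% in all. In clone 12 MYOD1 and MYOG were higher and TCF4 lower, with 27.8% and 24.7% of genes and 52.6% in all. Any difference among the 5 groups was called for MYOD1, MYOG, TCF4 and TCF12 and for 83.1% of all genes. The members' share of calls, 1 to 4 of 8, is near or below that background in every clone.

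The clone contrasts also followed the base composition of the transcripts. Over 10622 genes, the Spearman correlation of the log2 fold change with GC content was 0.555, 0.603, 0.666 and 0.611 in clones 4, 10, 11 and 12, and that with length was -0.111, -0.0197, -0.418 and -0.355. MYOD1 and MYOG transcripts have 65.5% and 57.9% GC, and TCF4 and TCF12 have 43.3% and 42.5%. With an offset for GC content and length in each library, a choice made after seeing the data, MYOD1 was higher in clone 4 (0.78, edgeR adjusted p = 3.43e-05) and clone 10 (0.46, adjusted p = 0.00071) and no longer called in clones 11 (0.13, adjusted p = 0.175) and 12 (0.080, adjusted p = 0.390). MYOG was higher in clones 4 (0.44, adjusted p = 0.0031) and 12 (0.45, adjusted p = 0.0026), at 0.23 in clone 11 (adjusted p = 0.0604) and at -0.052 in clone 10 (adjusted p = 0.663).

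With the same offsets TCF4 was lower in clones 4 (-0.49, edgeR adjusted p = 0.00479) and 12 (-0.84, adjusted p = 0.00026), and at 0.030 and -0.13 in clones 10 and 11 without passing. TCF12 was lower in clone 4 (-0.32, adjusted p = 0.0472) and in no other clone. TCF3 was then called lower in clone 4 (-0.36, adjusted p = 0.0480), clone 10 (-0.49, adjusted p = 0.0119) and clone 12 (-0.45, adjusted p = 0.0188), so its direction depends on this choice. The calls over all genes were 46.1%, 47.5%, 41.6% and 47.2% of 12587 genes in clones 4, 10, 11 and 12. Calls of MYOD1, MYOG, TCF4 and TCF12 in clone 4, of MYOD1 in clone 10 and of MYOG and TCF4 in clone 12 were thus made in both fits. In the time course the 72 h change of the PAX3-FOXO1-FKBP line had a correlation of -0.00713 with GC content and -0.302 with length, and the fitted change of MYOG with offsets was 1.85 (adjusted p = 0.00302) and that of TCF4 1.05 (adjusted p = 0.0209).

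The ID genes set the 2 libraries of clone 11 apart, and those of clone 12 more so. ID1 was at 1141 and 1179.9 normalised counts in parental cells. Clone 4 had 1760.1 and 2443, clone 10 had 1434 and 1580.1, clone 11 had 1071 and 383, and clone 12 had 3175 and 421. ID3, with the groups in the same order, was at 3852 and 4152, then 7781 and 9738, 6636 and 7228, 5738 and 2696, and 8967 and 1906. ID2 was at 169 and 168, then 147 and 149, 114 and 128, 107 and 46.3, and 267 and 66.5. In clones 4 and 10 both libraries were above parental for ID1 and ID3 and below it for ID2. In clone 12 the first library was above and the second below both parental libraries for each of the 3 genes.

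The second library of clone 12 was lower by 2.91 on the log2 scale for ID1 (7.51-fold), 2.23 for ID3 (4.70-fold) and 1.97 for ID2 (3.93-fold). These are ranks 3, 7 and 12 from the lowest of 11691 genes with a mean of at least 50, in a pair whose differences had an SD of 0.305 over all genes. In clone 11 the log2 differences were -1.48 for ID1, -1.18 for ID2 and -1.09 for ID3, ranks 13, 32 and 52, with an SD of 0.395. Differences past 2-fold made up 0.992% of genes in clone 12 and 1.69% in clone 11, and in clones 4 and 10 the ID genes differed by at most 0.47 between libraries. Of 7 pan-leukocyte markers the summed level went from 3300 to 6810 between the libraries of clone 11 and from 3610 to 6310 between those of clone 12, carried by CORO1A, LAPTM5 and ITGB2, while PTPRC and LCP1, defining leukocyte genes, were at 0 to 1.04 in these 4 libraries. Their part in the ID differences was not tested. MYOD1, MYOG and the E proteins differed by at most 0.46 within any pair of the 5 groups. Corrected for GC content and length, the differences in clone 12 were -2.94 for ID1 and -2.24 for ID3, and those in clone 11 were -1.72, -1.26 and -1.31 for ID1, ID2 and ID3.

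**Figure D4:**
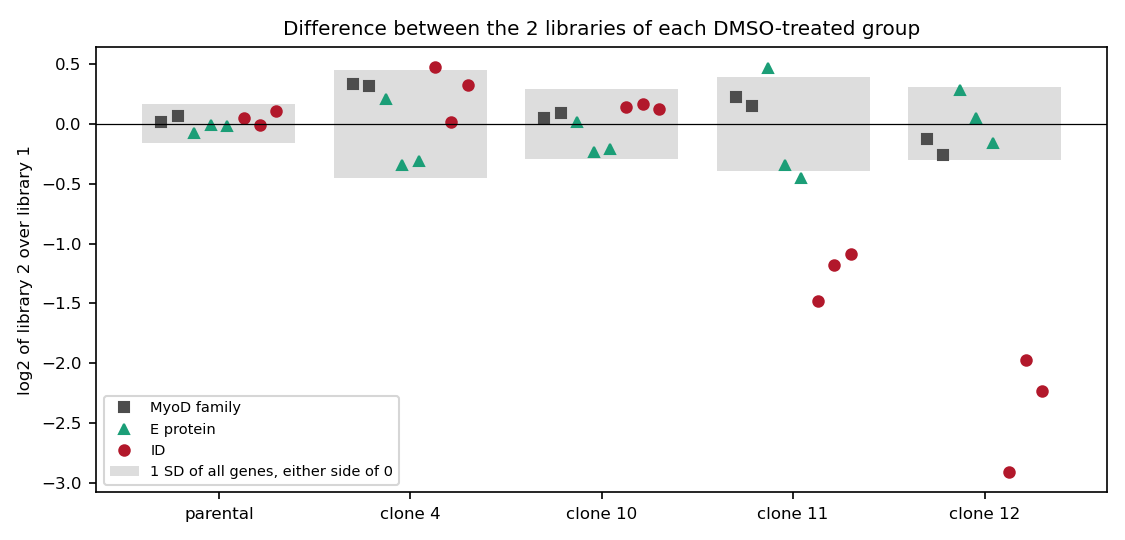
Log2 ratio of the second to the first library of each DMSO-treated group (vertical axis) for the 8 tested genes; squares are MyoD-family genes, triangles E proteins, circles ID genes, and the grey band is 1 SD of all genes either side of 0. The circles lie far below the band in clones 11 and 12, down to -2.91 for ID1, and squares and triangles stay near it.

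Of 12 tests, 3 ID genes in 4 clones, edgeR called 0 (adjusted p = 0.0838 to 0.952), with 1 at an unadjusted p under 0.05, and DESeq2 called none; the lowest was ID3 in clone 4 (1.20, SE 0.531, adjusted p = 0.0838). Over 18 alternatives the adjusted p of ID3 in clone 4 was 0.000266 to 0.223, and the split pairs enter the spread that each test uses. Without clone 12, ID3 was called higher in clone 4 (1.14, adjusted p = 0.0101) and clone 10 (0.80, adjusted p = 0.0403), and ID2 lower in clone 11 (-1.09, adjusted p = 0.0167). In that fit 6280, 6937 and 6984 of 14066 genes were called in clones 4, 10 and 11, so these calls do not stand out. For clone 12 the sign turned on 1 library: ID1 was at -1.46 against parental without the first library (adjusted p = 0.0379) and at 1.46 without the second (adjusted p = 0.0217). With the 2 libraries apart, the ratio of ID to E-protein level per kilobase was 6.19 and 1.09 in clone 12 and 3.38 and 1.36 in clone 11, against 1.97 and 2.17 in parental cells, by mean transcript lengths.

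Over all genes, differences past 2-fold either way made up 1.69% in the pair of clone 11 and 0.992% in that of clone 12. Of 29 BMP and SMAD genes measured within the pairs, 2 were past 2-fold higher and 1 lower in the second library of clone 11 (median -0.24), and 0 higher and 3 lower in that of clone 12 (median -0.10). The 2 higher were CHRD and HTRA1, secreted proteins, and the lower were SMAD6 in both pairs and SMAD7 and SMAD9 in clone 12; CHRD, HTRA1 and SMAD9 were named after their values were seen. SMAD6 went from 144 to 56.9 between the libraries of clone 11 and from 292 to 101 between those of clone 12, log2 differences of -1.31 and -1.51. SMAD9, a receptor-activated SMAD, was at 397 and 205 and at 375 and 133. SMAD7 was level in clone 11, at 186 and 188, and differed in clone 12, at 159 and 71.7. ATOH8 was at 4728 and 3504 and at 5106 and 2462. BMP4 did not follow, at 704 and 744 in clone 11 and 742 and 691 in clone 12. Pearson r over the 10 clone and parental libraries was 0.937 between ID1 and ID3 and 0.896 between ID1 and ID2, and over the 10 time-course columns it was 0.964 and 0.742. Libraries of a group share their cells, and these r values are descriptions.

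MYOG and TCF4 both rose in the time course of the PAX3-FOXO1-FKBP line and moved in opposite directions among the clones. Between 6 and 24 h of that course TCF4 fell from 2773 to 2587 while MYOG rose from 20492 to 29919. In the FOXO1-FKBP line every dTAG column was above DMSO for MYOG and below DMSO for TCF4. Over the 10 time-course columns, each line centred, Pearson r was 0.889. Over the 10 parental and clone libraries it was -0.939. After correction of each log2 value for GC content and length, r was 0.829 and -0.875. Parental cells had the lowest MYOG and the highest TCF4, and clone 12 the highest MYOG and the lowest TCF4. The points share lines, groups and tables, so each r describes these libraries, and whether the 2 relations differ was not tested.

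**Figure D5:**
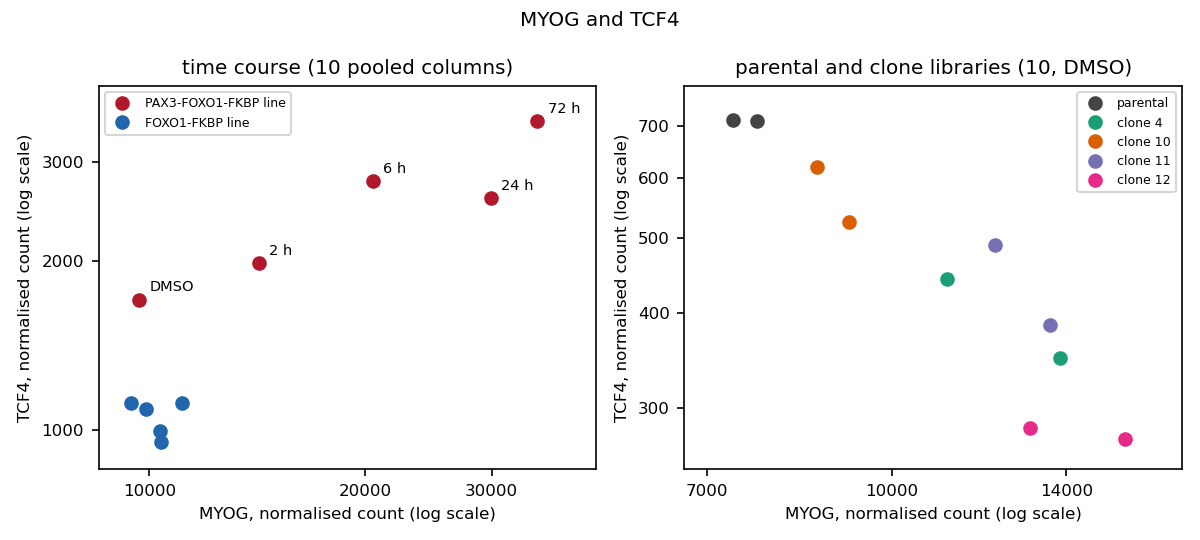
TCF4 against MYOG, both as normalised counts on log axes: left, the 10 pooled time-course columns (red, PAX3-FOXO1-FKBP line with its times; blue, FOXO1-FKBP line); right, the 10 DMSO-treated parental and clone libraries, 2 points per group. On the left the red points go from 9687 and 1704 in DMSO to 34753 and 3551 at 72 h, with TCF4 lower at 24 h than at 6 h. On the right TCF4 declines as MYOG increases, from the parental points to those of clone 12.

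Textbook targets of the MyoD family were mostly higher in the clones. Of 30 tested, 23, 21, 18 and 20 were higher and 2, 2, 1 and 2 lower in clones 4, 10, 11 and 12. Their median log2 fold change was 0.84, 1.09, 0.71 and 1.07, against 0.048, 0.053, -0.0048 and 0.029 over all genes. Over all genes 25.1%, 27.8%, 26.5% and 27.8% were called higher and 22.3%, 24.2%, 25.1% and 24.7% lower. With the offsets, 16, 18, 10 and 14 of 28 targets were higher and 2, 1, 3 and 2 lower. Their medians were then 0.67, 0.73, 0.30 and 0.67, against 0.057, 0.061, 0.020 and 0.054 over all genes. Of all 12587 genes tested with offsets, 3324, 3407, 2890 and 3324 were higher and 2475, 2568, 2349 and 2616 lower. DES, the muscle intermediate filament, was at 9731 and 10171 in parental cells, against 31130.1 and 34253 in clone 10 and 30553 and 27177 in the libraries of clone 12. CDH15, the muscle cadherin, was at 10248 and 10469 in parental cells and 26824 and 29126 in clone 4. TNNI2, fast troponin I, was at 463 and 447 in parental cells and 1824 and 2540.1 in clone 11. CKM, muscle creatine kinase, went the other way in clone 10, with 249 and 225 in parental cells against 64.0 and 64.1 (-1.81, SE 0.261, edgeR adjusted p = 0.000321). The sum of 6 fibroblast markers was 1120 and 1140 in parental cells, 620 to 3110 in clones 4, 11 and 12, and 21900 and 22400 in clone 10, the clone in which MYOG, TCF4 and TCF12 were nearest to parental. The sum of 6 epithelial markers was 128 and 131 in parental cells, 2600 and 3300 in clone 4, 1110 and 1120 in clone 10 and 76.9 to 119 in clones 11 and 12, with KRT5 at 0 in all 8 clone libraries. The part of these markers in the clone values was not tested.

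Among the libraries of parental cells and clones, the genes most like a member by Pearson r were taken from 9876 genes called in the test of any difference, with a mean of at least 50 normalised counts and leaving out most names with LOC or a hyphen. MYOD1 was most like SH3BP5L (0.988), MORC2 (0.981) and ORAI2 (0.980), and among the genes most like MYOG were BABAM1 (0.979) and GCDH (0.978). TCF4 was most like GLCCI1 (0.987), RRM1 (0.985) and C6orf120 (0.976), and TCF12 like C9orf91 (0.981), FAM102B (0.975) and RP2 (0.973). The time-course search drew on other candidates, 804 genes spanning at least 2-fold, and was not made for MYOD1 and TCF12. Whether the names found in the 2 searches differ was not tested. The values share 10 libraries of 5 groups and the dependence on GC content given above.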

How the data were processed

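Total RNA of 30 Rh30 samples in 15 groups of 2 was sequenced; samples were grouped by their titles and treatment labels. Per the submitters' processing notes, Trimmomatic 0.32, Bowtie2, Cuffdiff 2.1.1 and the build hg19 were used; their roles, the annotation and any strand setting are not stated. For the time course the authors deposited estimated counts, 1 pooled column per condition per the file headers (73.6% of values not whole); they were rounded for tests. The clone table holds raw counts deposited by the authors, 1 column per library.

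Counts were scaled with TMM and tested with the quasi-likelihood F test of edgeR 4.0.16 under R 4.3.3, after filterByExpr (minimum count 10), with Benjamini-Hochberg adjustment over all genes and a threshold of 0.05. The trend used 5 columns per line (3 residual degrees of freedom), the difference in slope 10 columns (6), and the clones 10 libraries (5). Descriptive log2 changes used a prior of 2. In the time course, 41 genes of the PAX3-FOXO1-FKBP line and 9 of the FOXO1-FKBP line were left out as possible failed estimates. These were listed at 0 in some columns and at 10 or more in all the others. Genes truly present in only some columns also meet this rule. GC content and length are means over basic coding transcripts of GENCODE v29, matched by symbol (loess span 0.5). DESeq2 1.42.0 was an alternative.

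On simulated data the trend of the PAX3-FOXO1-FKBP line recovered 89% of genes changed by 1 on the log2 scale and 100% of those changed by 2, the slope difference 46% and 98%, and clone 4 against parental 84% and 100%. Unchanged genes called numbered 13, 13 and 7 in that order. Within each simulation all genes had the same spread, without dependence on GC content or length. The recovered shares therefore do not describe genes with a wider spread, such as the ID genes in the clones. The members and lists were chosen with earlier results of these data known. Beside all members, each list's 3 lowest-p genes each way in the PAX3-FOXO1-FKBP trend are named (1 where none passed), and 1 each way per clone contrast. Genes most like a member were named by Pearson r. Of these, 1 is not reported here. Counts of 0 allow up to 3 counts, counting error only.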

Additional observations from a re-analysis of the deposited data

Results flagged for a closer look

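The dTAG slope of MYOG differed between the lines: the fitted log2 change to 72 h was larger by 1.70 in the PAX3-FOXO1-FKBP line than in the FOXO1-FKBP line (SE 0.202, edgeR adjusted p = 0.00274). The difference itself was tested, over 10 pooled columns without replicate error. MYOG was above DMSO in all 4 dTAG columns of both lines, by 0.55 to 1.84 in the first and 0.074 to 0.24 in the second. The call was lost without the DMSO columns (1.59, adjusted p = 0.137) and kept in the other 11 alternatives (adjusted p at most 0.0373).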

How the results depend on the processing

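DESeq2 called 999 genes in the trend of the PAX3-FOXO1-FKBP line (595 with edgeR), 1 in that of the FOXO1-FKBP line (0) and 541 in the difference in slope (277). Leaving out 1 time gave 107 (no DMSO) to 1388 (no 24 h), 0 to 1309 (no 24 h) and 14 (no DMSO) to 671 (no 24 h); without 72 h the first trend had 127. Leaving out 1 clone or parental library, or 1 of clone 11 with 1 of clone 12, gave 3923 to 7027 calls in clone 4, 4586 to 8135 in clone 10, 4474 to 8069 in clone 11 and 4758 to 8181 in clone 12, each lowest without a parental library except in clone 11. GC and length correction left 12 and 31 genes past 2-fold at 24 and 72 h in the FOXO1-FKBP line (25 and 53).

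Members not called in the first fit changed sign as follows, and the cause was not tested. Leaving out 1 column gave -0.39 to 0.073 for TCF3, -0.55 to 0.80 for ID1 and -0.24 to 0.40 for ID3 in the PAX3-FOXO1-FKBP line. In the FOXO1-FKBP line it gave -0.25 to 0.11 for TCF4, -0.47 to 0.10 for TCF12 and -0.24 to 0.63 for ID2. In the difference it gave -0.88 to 0.46 for ID1 and -0.45 to 0.30 for ID3. With GC and length offsets the FOXO1-FKBP trend was -0.020 for MYOD1, -0.052 for TCF3 and 0.096 for TCF4. In the clones the offsets gave TCF3 -0.36, -0.49 and -0.30 (clones 4, 10, 11), MYOG -0.052, TCF4 0.030 and TCF12 0.15 (clone 10), ID3 -0.45 (clone 11), and TCF12 0.11, ID2 -0.26 and ID3 -0.064 (clone 12). Library totals gave TCF3 -0.050 and -0.054 in clones 4 and 11, ID3 -0.057 in clone 11 and ID2 -0.18 in clone 12, where DESeq2 size factors gave -4.77e-05 and no filter -0.025. Leaving out libraries gave TCF3 -0.037 to 0.18, -0.13 to 0.33 and -0.24 to 0.045 (clones 4, 11, 12), ID3 -0.56 to 0.53 (clone 11), and ID1 -1.46 to 1.46, ID2 -1.33 to 0.67 and ID3 -1.06 to 1.17 (clone 12). Without a filter on low counts ID1, ID2 and ID3 passed the test of any difference, as they did without clone 12. Most genes did so too: 12391 of 18547 without the filter and 10600 of 14066 without clone 12.

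The labels do not say whether the replicate numbers 1 and 2 of parental cells and clones 4, 10 and 11 mark a shared culture or day. Same-numbered deviations correlated by 0.569, 0.185 and 0.172 among the clones and by -0.0375 to 0.0833 between parental cells and clones. With the replicate block and no clone 12 there were 7046, 7705 and 7689 calls in clones 4, 10 and 11, against 6280, 6937 and 6984 in the same libraries without it. The block also called ID1 higher in clone 4 (0.88, edgeR adjusted p = 0.0361), which the 8 libraries without it did not. ID3 in clones 4 and 10 and ID2 in clone 11 were called both with it (adjusted p = 0.00288, 0.0182 and 0.00655) and without it. No paired analysis was possible for the time course because its columns are pooled, nor for clone 12 because it shares no numbers with the others. Depth limits MYF5 and MYF6.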

Other observations

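Calls in the lists of other regulators stand against 47.4%, 52%, 51.6% and 52.6% of all genes called in clones 4, 10, 11 and 12, and no list is called particular from its count. TWIST1, a bHLH inhibitor of MyoD, was at 42.0 and 45.0 normalised counts in parental cells, 155 and 166 in clone 4 (log2 fold change 1.95, SE 0.216, edgeR adjusted p = 9.79e-05) and 209 and 189 in clone 10 (2.26, SE 0.215, adjusted p = 4.01e-05). ZEB1, an E-box repressor, was at 1548 and 1547 in parental cells, 766 and 695 in clone 4 (-1.01, adjusted p = 0.000985) and 459 and 500.3 in clone 11 (-1.62, adjusted p = 0.000122). MDFI, which holds MyoD-family proteins in the cytoplasm, was called higher in clone 11 (0.98, adjusted p = 0.000269) and HEY1 in clone 12 (1.53, adjusted p = 0.000353). ID4, the ID gene outside the 3 described, was at 43.6 and 35.1 in parental cells, 2.70 and 2.21 in clone 10 (-3.85, SE 0.496, adjusted p = 0.000183) and 6.10 and 5.19 in clone 12 (-2.72, SE 0.441, adjusted p = 0.000623). Of the 15 inhibitors tested, 5, 7, 3 and 5 were higher and 2, 3, 5 and 3 lower in clones 4, 10, 11 and 12, and with GC and length offsets 4, 6, 0 and 4 were higher and 4, 4, 5 and 2 lower.

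Of 7 other bHLH partners of E proteins tested, 3, 4, 3 and 3 were higher and 0, 1, 0 and 0 lower in clones 4, 10, 11 and 12, and with the offsets 1, 2, 1 and 2 were higher and 0, 2, 0 and 1 lower. OLIG1, a glial lineage factor, was at 10.1 and 15.2 in parental cells, 141 and 86.1 in clone 4 (3.22, SE 0.332, edgeR adjusted p = 6.73e-05), 173 and 171 in clone 11 (3.82, SE 0.33, adjusted p = 6.56e-05) and 9.91 and 9.95 in clone 10. HAND2, a heart and limb factor, was called higher in clones 10 (2.00, adjusted p = 0.000216) and 12 (1.90, adjusted p = 3.00e-04), and NHLH1 lower in clone 10 (-1.78, adjusted p = 0.0138). Of 33 BMP and SMAD genes, 8, 5, 5 and 5 were higher and 9, 6, 13 and 12 lower. With the offsets 11, 11, 9 and 10 were higher and 11, 7, 8 and 6 lower, so that the excess of lower calls in clones 10, 11 and 12 turned over. GREM1, which fell along the PAX3-FOXO1-FKBP time course, was at 1393 and 1490.1 in parental cells and 5624 and 3987 in clone 4 (1.81, SE 0.25, adjusted p = 0.000326). BMPR1B, a type I receptor, was lower in clone 10 (-2.27, adjusted p = 0.000212), BMP6 higher in clone 11 (2.40, adjusted p = 0.000152), and RGMB, a BMP co-receptor, lower in clone 12 (-1.40, adjusted p = 5.4e-05). Of 14 coactivators, 4, 4, 4 and 3 were higher and 1, 4, 2 and 4 lower, and with the offsets 3, 4, 2 and 2 were higher and 1, 8, 2 and 5 lower. PRMT5, an arginine methyltransferase, was higher in clones 4 (0.79, adjusted p = 0.00063) and 10 (0.83, adjusted p = 0.000415), and KAT2B, an acetyltransferase of MyoD, lower in clone 11 (-1.48, adjusted p = 0.00118).

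Over 11403 genes with a mean of at least 50, called or not and leaving out most names with LOC or a hyphen, in the parental and clone libraries, a search added after the values were seen, ID1 was most like BCDIN3D (Pearson r = 0.891), MFSD11 (0.802) and VGLL4 (0.800), and most opposite to RGMA, a BMP co-receptor (-0.868), over 10 libraries.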
